A study of Canis lupus familiaris with 2 samples.

Results

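S cones are the cone photoreceptors that carry the short-wavelength opsin. In single-cell RNA profiles of dog retina they were chosen by the measured UMIs of 7 genes, and 82 cells of 13282 met the rule, 66 of 8895 in dog N350 and 16 of 4387 in dog N354. A cell counted as a cone when at least 2 of the cone genes *PDE6H*, *ARR3*, *GNAT2*, *GNGT2* and *GNB3* had a UMI, and as an S cone when it held 2 or more UMIs of *OPN1SW* and more of them than of *OPN1LW*. A UMI (unique molecular identifier) tags a single mRNA molecule, so that amplified copies are counted once. The L/M cones they were set against passed the same cone genes and held more UMIs of *OPN1LW*, the long/medium-wavelength opsin, than of *OPN1SW*, which gave 155 cells in N350 and 124 in N354.

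The study took punches of neuroretina from 2 normal (wild-type) male dogs aged 40 weeks, separated them into single cells and captured these in droplets. It asked which retinal cells express the genes at a disease locus, and no treatment or mutant animal entered these samples. Each dog gave 1 library and is 1 replicate, so cells of a dog are not replicates and every comparison below rests on 2 animals. The libraries held 24030707 UMIs for N350 and 9711202 for N354, and the median cell had 1298 and 1204.5 UMIs.

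Most dog cones carry the L/M opsin and a minority the S opsin. In both, light-activated opsin switches on the G protein transducin, which activates a cone phosphodiesterase, and the fall in cGMP closes cyclic nucleotide-gated channels, after which kinases and arrestins shut the opsin off. Developing cones are known to need the thyroid hormone receptor THRB to take the L/M fate, whereas S opsin is the state cones reach without it.

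S cones yielded a median of 4065 UMIs (972 to 11878) and 2013.5 genes per cell in N350, and 4923.5 UMIs (1360 to 16897) and 1972 genes in N354. L/M cones held medians of 7447 and 5024.5 UMIs, and rods 1066 and 1017, so S cones were shallower than L/M cones in N350 and of like depth in N354. The median share of UMIs from mitochondrial genes was 5.94% and 9.90% in S cones, and 7.50% and 11.7% in L/M cones. A limit of under 5% mitochondrial UMIs would leave 22 S cones in N350 and 0 in N354, and none was applied. The libraries share 6 barcodes, of which 0 belong to S cones. Doublets were scored but not removed, and 7 S cones of N350 and 1 of N354 were among the 4% of cells with the highest scores.

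The label was checked against cone genes that the rule did not use. *PDE6C*, the catalytic subunit of the cone phosphodiesterase, stood at 3.13 UMIs per 10000 UMIs of S cones in N350 and 5.50 in N354, against 0.0229 and 0.0134 in rods. *GRK7*, the cone opsin kinase, stood at 5.50 and 7.37 against 0.0529 and 0.0242 in rods. The 5 cone genes of the rule and both opsins chose the cells, so their values are a description and carry no test. All 5 were present in 52 of 66 S cones of N350 and in 13 of 16 of N354. *PDE6H*, the inhibitory subunit of the cone phosphodiesterase, stood at 181 per 10000 in S cones of N350 and 226 in N354, against 288 and 338 in L/M cones. *ARR3*, cone arrestin, stood at 34.0 and 46.2 in S cones against 57.1 and 72.8. The transducin subunits lay closer, with *GNAT2* at 16.7 and 10.7 in S cones against 21.2 and 10.2 in L/M cones, *GNGT2* at 24.6 and 34.4 against 28.8 and 32.1, and *GNB3* at 22.9 and 7.14 against 28.5 and 8.65. In rods all 5 genes together came to 2.62 and 0.736 per 10000.

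*OPN1SW* was the gene that set S cones apart by rule, and its level among their UMIs was 71.3 per 10000 (95% Poisson interval 68.3 to 74.4) in N350 and 101 (94.2 to 108) in N354. Intervals on levels, ratios and shares cover counting error only, not differences between animals. Single S cones held 2 to 106 *OPN1SW* UMIs in N350 with a median of 20.5, and 6 to 115 with a median of 57 in N354. No L/M cone held any, which the rule fixed for the 60 of 155 and 32 of 124 cells with 1 *OPN1LW* UMI and left free below the *OPN1LW* count for the rest. As a background level, *OPN1SW* appeared in 0.668% and 0.330% of the shallower rods, at 0.0529 and 0.0269 per 10000. *OPN1LW* appeared in 4 S cones of N350, 9 UMIs in all, and in none of N354. L/M cones held a median of 2 and 3 *OPN1LW* UMIs per cell, at levels of 3.39 and 6.68 per 10000.

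The threshold of 2 UMIs met a continuous low range in N350 and a gap in N354. Just inside it, 14 cells of N350 held exactly 2 *OPN1SW* UMIs, and just outside it 45 cells with the cone genes held 1 UMI and no *OPN1LW*, and 1 more held 1 UMI of each opsin. In N354 the lowest S cones held 6 and 10 UMIs and no cell with the cone genes held 1. Of the S cones of N350, 28 held 2 to 9 UMIs and 38 held 10 or more, against 1 and 15 in N354. The 28 low cells of N350 also differed in genes the rule did not use. *GNAT1*, rod transducin, stood at 9.01 per 10000 in them, at 2.24 in the 38 others, at 1.34 in L/M cones and at 28.6 in rods of that dog. *PDE6G*, the inhibitory subunit of the rod phosphodiesterase, stood at 47.3 against 9.14, and the glial filament gene *VIM* at 49.4 against 15.5. The part of rod or glial RNA in these cells was not tested, and the calls below were made again for S cones with 10 or more *OPN1SW* UMIs, a limit set after these values were seen.

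Taken as cells, S cones made up 29.9% (exact binomial 95% interval 23.9 to 36.4) of S and L/M cones in N350 and 11.4% (6.68 to 17.9) in N354. With 10 or more *OPN1SW* UMIs the shares were 19.7% and 10.8%. Of all cells they were 0.742% and 0.365%. Each share comes from 1 library and depends on the limit for *OPN1SW*, and a difference between the dogs was not tested. The cones are those for which an opsin was detected, and 893 and 141 further cells with the cone genes held neither opsin.

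To compare S with L/M cones across genes, UMIs were summed per dog and class and tested with edgeR's quasi-likelihood test with the dog in the model, over 8687 genes named in both dogs and with at least 10 UMIs. At a Benjamini-Hochberg adjusted p under 0.05, 115 genes (1.32%) were called, 76 (0.875%) higher and 39 (0.449%) lower in S cones, and 101 of the 115 had the same direction in each dog. The median log2 fold change over all genes was -0.05. The 4 sums leave 1 residual degree of freedom and edgeR gave every gene the same prior spread, so the p-values lean on the spread pooled over genes. With S cones of 10 or more *OPN1SW* UMIs, 28 genes (0.328%) were higher and 39 (0.457%) lower, 0.784% in all, among them 28 of the 76 and 32 of the 39.

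The genes highest in S cones relative to L/M cones, apart from the opsin, were *CCK* and *CCDC136*, and both were near absent from L/M cones. *CCK*, which encodes the neuropeptide cholecystokinin, gave 802 UMIs in S cones of N350 and 316 in N354, or 26.7 and 37.0 per 10000, against 8 and 0 UMIs in L/M cones. It was found in 77.3% of S cones in N350 and 100% in N354, and in 1.94% and 0% of L/M cones and 0.371% and 0.132% of rods. In N354, where L/M cones had no UMI, the level was at least 788-fold higher in S cones against a floor of 3 UMIs over the group. The log2 fold change was 9.24 ± 0.33 (SE from the pooled spread, n = 2 dogs) with an adjusted p of 7.26e-166 (edgeR, Benjamini-Hochberg). With 0.5 UMIs added to each sum it was 8.36 in N350 and 12.2 in N354. With 8 and 0 UMIs in L/M cones, *CCK* passed the minimum of 10 UMIs through S cones, and no support was drawn from its call. Within N350, *CCK* was found in 37 of 38 S cones with 10 or more *OPN1SW* UMIs, at 38.4 per 10000, and in 14 of 28 with fewer, at 3.04. When each cell was thinned to 1000 UMIs, 66.7% and 92.9% of S cones and 0.682% and 0% of L/M cones would show the gene.

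*CCDC136* encodes a coiled-coil protein and lies beside the S opsin gene, with only a tRNA gene between them in the RefSeq order of the assembly UU_Cfam_GSD_1.0. It stood at 4.27 per 10000 in S cones of N350 and 13.6 in N354, against 0.0671 and 0.0626 in L/M cones, ratios of 63.5 (30.0 to 161) and 217 (82.5 to 810). The log2 fold change was 6.73 ± 0.33 (SE from the pooled spread, n = 2 dogs), adjusted p = 1.41e-87 by edgeR. It was found in 56.1% and 93.8% of S cones. Reads that run on from one neighbouring gene into the other cannot be told apart from transcripts of *CCDC136* itself in these counts.

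*ERMN*, which encodes ermin, a cytoskeletal protein known from myelinating glia, stood at 1.43 per 10000 in S cones of N350 and 6.67 in N354. L/M cones held 0.288 and no UMI, so that the ratio was 4.98 in N350 and at least 142 in N354 (log2 fold change 4.03, adjusted p = 1.65e-31 by edgeR). *DEFB119*, a beta-defensin gene, rested on few UMIs, at 0.300 and 1.40 in S cones against 0.0192 and 0.0782, and had a log2 fold change of 3.93 (adjusted p = 4.73e-05). L/M cones held fewer than 10 UMIs of *DEFB119*, so it passed the minimum of 10 through S cones, and no support was drawn from its call. Both genes were higher in S cones of each dog and kept their call with S cones of 10 or more *OPN1SW* UMIs, and *ERMN* lost its call by DESeq2 (log2 fold change 6.68, adjusted p = 0.9999).

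*SAG*, the arrestin usually counted as a rod gene, was abundant in S cones. Its level was 52.9 per 10000 (50.3 to 55.5) in N350 and 52.3 (47.6 to 57.4) in N354, between that of L/M cones, 4.54 and 9.39, and that of rods, 89.3 and 121. The ratio to L/M cones was 11.7 (10.5 to 12.9) and 5.57 (4.92 to 6.31). The log2 fold change was 2.96 ± 0.21 (SE from the pooled spread, n = 2 dogs), adjusted p = 5.13e-43 by edgeR. In S cones with 10 or more *OPN1SW* UMIs *SAG* stood at 55.7 in N350 and 53.1 in N354. Rod transducin *GNAT1* stood in the same cells at 2.24 and 1.09, against 1.34 and 4.71 in L/M cones and 28.6 and 48.8 in rods.

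**Figure D1:**
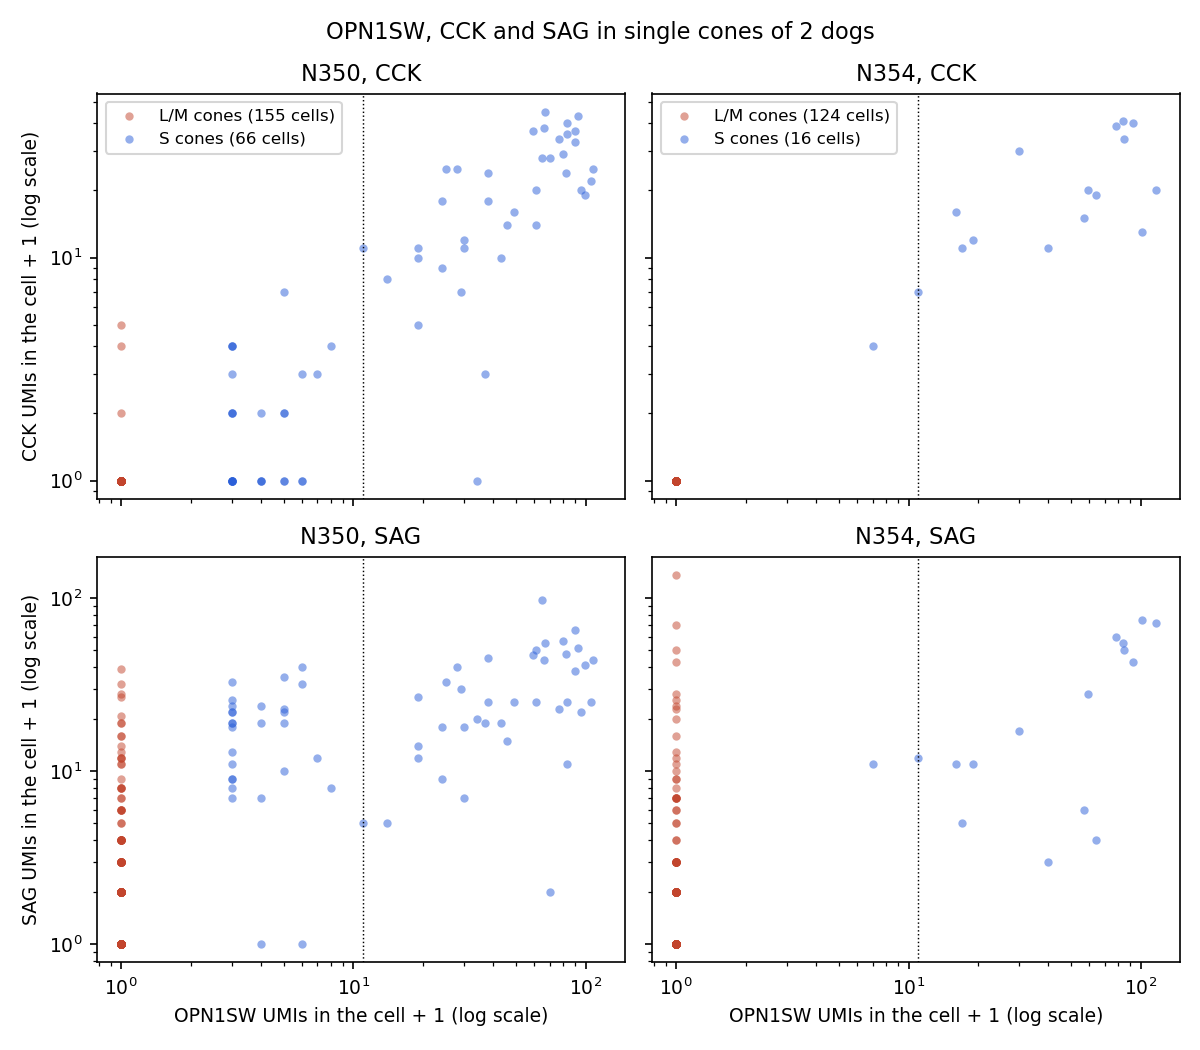
Each point is a cell of N350 or N354, with its *OPN1SW* UMIs on the horizontal axis and its UMIs of *CCK* (upper row) or *SAG* (lower row) on the vertical axis, both plus 1 on log scales, and the dotted line marks 10 *OPN1SW* UMIs. S cones with many *OPN1SW* UMIs hold *CCK*, which is at or near 0 in L/M cones, and *SAG* is present across the S cones, at lower counts in most L/M cones.

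The other genes that led by size of change had few UMIs or rested on few cells. *NPVF*, a neuropeptide precursor, had 1 UMI in S cones of N350 and 34 in N354, all 34 in 3 of 16 cells (log2 fold change 4.05). *ALDH1L1*, a folate enzyme, had 10 and 1 UMIs in S cones and 0 in L/M cones, at least 11.6-fold higher in N350 against the floor of 3 UMIs. It passed the minimum of 10 UMIs through S cones alone, so its call is fixed in direction, and it was left out of the fit with 10 or more *OPN1SW* UMIs. *AUTS2*, a neurodevelopmental regulator, stood at 0.500 and 0.351 per 10000 against 0.0575 and 0.0313 (3.12), and *IFI44*, an interferon-induced gene, at 0.400 and 0.936 against 0.105 and 0. L/M cones held fewer than 10 UMIs of *AUTS2*, so it passed the minimum through S cones, and no support was drawn from its call. *CDO1*, cysteine dioxygenase, had 19 UMIs in S cones of N350, 15 of them in a single cell (2.83). Calls were lost with 2 or more *OPN1LW* UMIs in L/M cones for *AUTS2* and *CDO1* (adjusted p of 0.0520 and 0.0531), with rods in the fit for *AUTS2*, *CDO1* and *IFI44* (0.101, 0.0839 and 0.0922) and by DESeq2 for *NPVF* (0.0588), with log2 fold changes from 2.83 to 3.39.

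Among genes lower in S cones, *THRB* was the member of the fixed transcription factor list with the largest change. The thyroid hormone receptor stood at 5.28 and 2.96 per 10000 in L/M cones and was found in 85.2% and 61.3% of them. S cones of N350 held 13 UMIs, 0.433 per 10000, of which 7 were in 1 cell, and S cones of N354 held 0, for which the level in L/M cones was at least 8.42-fold higher against the floor of 3 UMIs. The log2 fold change was -3.89 ± 0.35 (SE from the pooled spread, n = 2 dogs), adjusted p = 3.90e-25 by edgeR. With 0.5 UMIs added to each sum it was -3.56 in N350 and -5.66 in N354. Rods stood between, at 1.09 and 0.634 per 10000, and 12.4% and 7.36% of them held the gene.

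*SAMD7*, a photoreceptor repressor linked to Polycomb complexes, stood at 0.367 and 1.05 per 10000 in S cones against 2.38 and 3.24 in L/M cones (log2 fold change -2.28, adjusted p = 1.22e-09 by edgeR). *GSG1L2* stood at 2.10 and 0.468 against 9.19 and 6.93 (-2.55, adjusted p = 4.58e-20). *LAMA1*, a laminin chain of basement membranes, stood at 0.300 and 0.702 against 2.27 and 2.82 (-2.60, adjusted p = 8.84e-11). The next 2 genes were chosen after their values were seen, because they were called in nearly every setting. *NPTX1*, a secreted pentraxin of synapses, was 5.14-fold and 4.55-fold higher in L/M cones, and *ATP6V1C2*, a subunit of the proton pump V-ATPase, stood at 0.800 and 0.234 in S cones against 3.20 and 2.80. The S and L/M levels of these genes lay on the same sides in both dogs.

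*FLRT2*, an adhesion receptor, was far lower in S cones of N350, 0.167 against 2.25 per 10000, but had only 12 UMIs in L/M cones of N354 and 0 in S cones (log2 fold change -3.76). *GSDMA*, a gasdermin, had 12 and 0 UMIs in S cones against 212 and 36 (-2.49), and *NSG2*, an endosomal protein of neurons, 1 and 0 against 22 and 83 (-4.08). *CACNA1E*, an R-type calcium channel, had 0 UMIs in S cones of both dogs against 32 and 16, at least 3.07-fold lower in N350 against the floor of 3 UMIs and within that floor in N354. It passed the minimum of 10 UMIs through L/M cones alone, so its call is fixed in direction. *TRAF5*, a signalling adaptor, had 0 and 1 UMIs against 17 and 51 (-3.50), and *STK4*, a Hippo pathway kinase, 2 and 0 against 52 and 20 (-3.11). S cones held fewer than 10 UMIs of *FLRT2*, *NSG2*, *TRAF5* and *STK4*. These genes passed the minimum of 10 through L/M cones, where they were high, and no support was drawn from their calls. With S cones of 10 or more *OPN1SW* UMIs *CACNA1E*, *TRAF5* and *STK4* lost their call, with adjusted p of 0.0928, 0.151 and 0.166 by edgeR, and the last 2 had log2 fold changes of -3.35 and -2.74. *APOA1*, an apolipoprotein, was called lower (-6.49), but 648 of the 654 UMIs in L/M cones of N350 came from 1 cell. It too passed the minimum through L/M cones. By DESeq2 *FLRT2* and *GSDMA* had log2 fold changes of -3.63 and -2.81 and lost their calls (adjusted p of 0.0985 and 0.336).

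**Figure D2:**
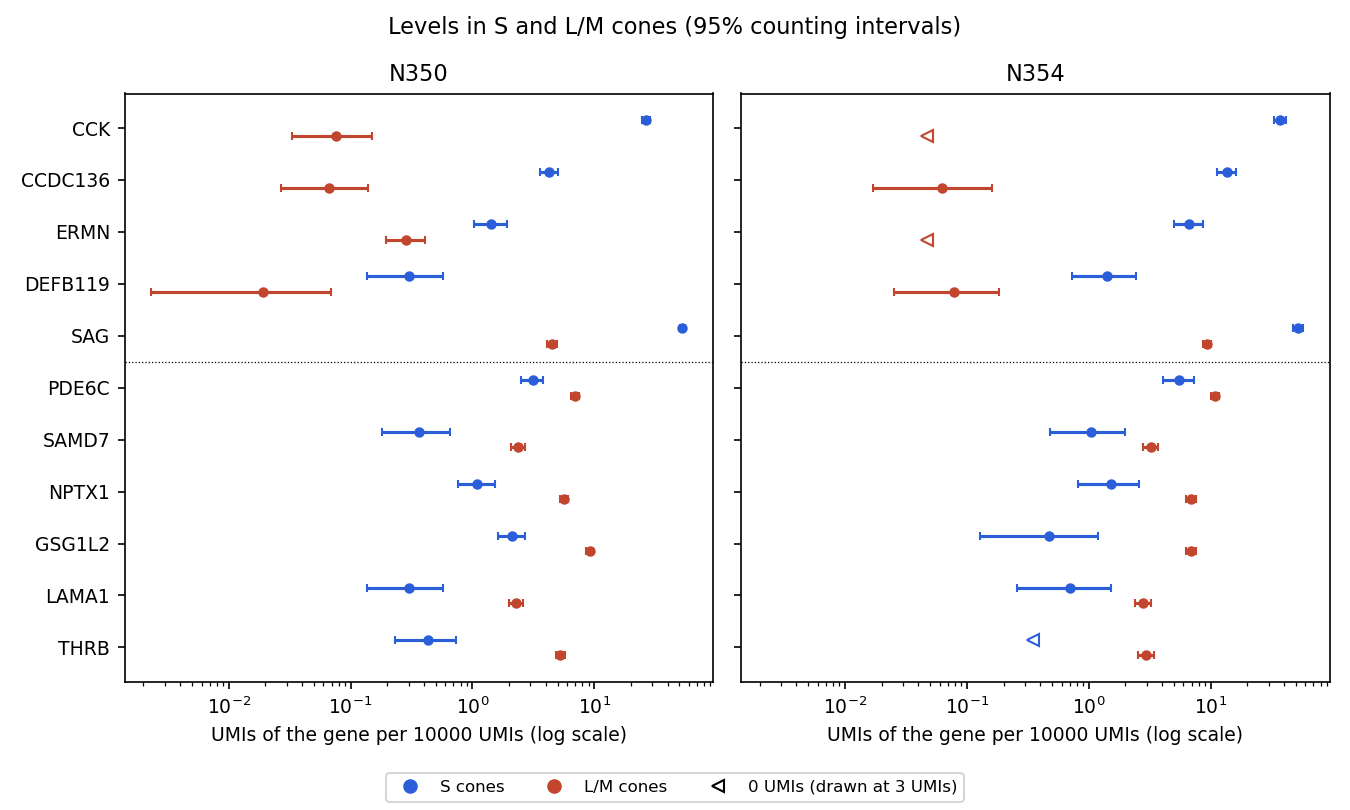
Points are UMIs of a gene per 10000 UMIs (log scale) in S cones (blue) and L/M cones (red) of each dog, with 95% Poisson intervals, and open triangles mark 0 UMIs, drawn at 3 UMIs. The 5 genes above the dotted line were higher in S cones of both dogs, and the 6 below it lower, with *CCK* at 26.7 and 37.0 in S cones and *THRB* at 0.433 and 0.

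Of 15 further phototransduction genes listed, 14 were tested, 1 was higher and 1 lower, beside 0.875% and 0.449% of all genes, and the median log2 fold change was -0.08. The lower gene was *PDE6C*, at 3.13 and 5.50 per 10000 in S cones against 6.94 and 10.9 in L/M cones, ratios of 0.451 (0.360 to 0.560) and 0.504 (0.367 to 0.677), with a log2 fold change of -1.13 ± 0.22 and an adjusted p of 6.26e-05 by edgeR. It kept its call with 10 or more *OPN1SW* UMIs and lost it by DESeq2 (log2 fold change -1.11, adjusted p = 0.0641). The higher gene, *GUCA1B*, a guanylate cyclase activator, was higher in N350 (2.73 against 0.719) but not in N354 (0.234 against 0.501), and lost its call with that limit.

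Channel and shut-off genes did not pass the test. *CNGA3*, the main subunit of the cone channel, stood at 0.800 and 2.22 per 10000 in S cones against 1.45 and 2.28 (log2 fold change -0.54, adjusted p = 0.820 by edgeR). Its partner *CNGB3* stood at 1.43 and 3.75 against 1.47 and 3.63, with ratios of 0.977 (0.680 to 1.38) and 1.03 (0.690 to 1.5). *GRK7* stood at 5.50 and 7.37 against 6.40 and 6.60, with ratios of 0.860 (0.721 to 1.02) and 1.12 (0.843 to 1.46). *RCVRN*, recoverin, the calcium sensor that restrains opsin kinases, stood at 107 and 180 against 134 and 223. The counting intervals of *CNGB3* and *GRK7* contain equal levels in both dogs, which does not show that the levels are equal.

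**Figure D3:**
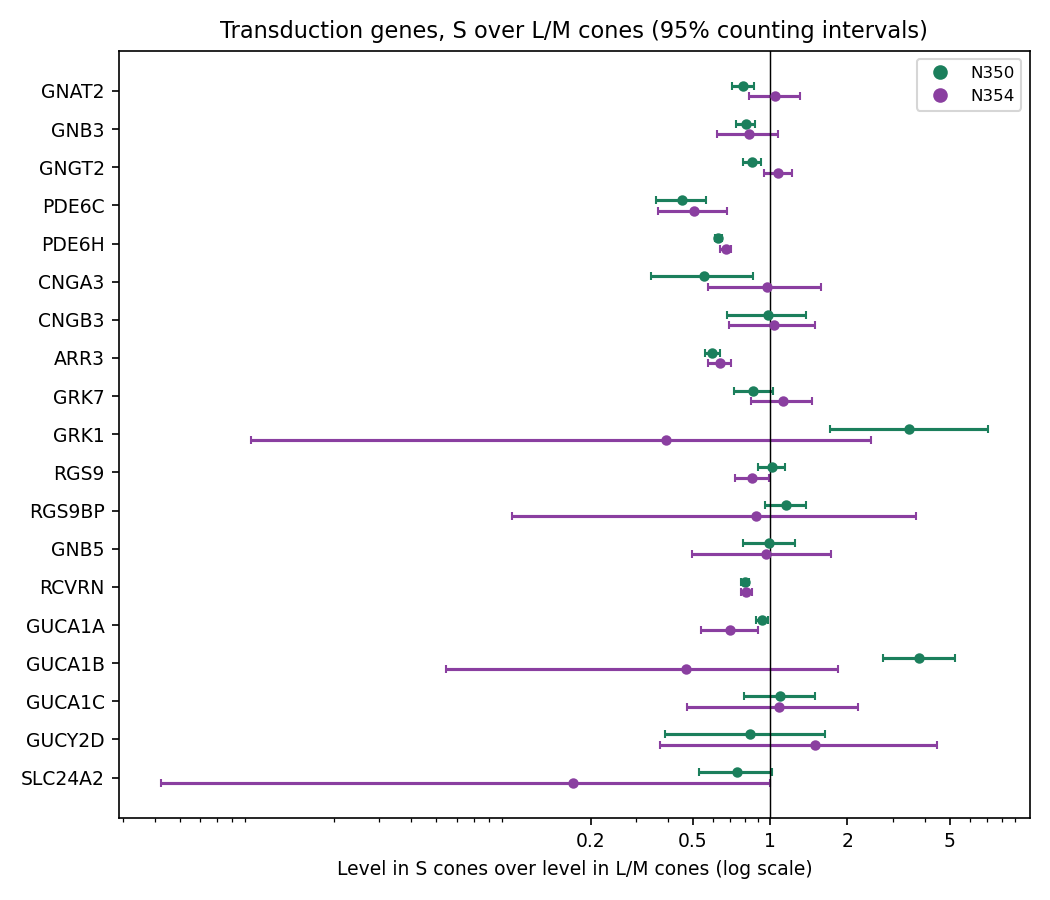
Points are the level in S cones over that in L/M cones for cone phototransduction genes in each dog, on a log scale with 95% counting intervals, and the line marks equal levels. *PDE6C* lies below the line in both dogs at 0.451 and 0.504, and *CNGB3* at 0.977 and 1.03. Genes that chose the cells are included as a description.

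Of 24 transcription factors and regulators of photoreceptors listed, 21 were tested, 0 were higher and 2, *THRB* and *SAMD7*, were lower, beside 0.449% of all genes, with a median log2 fold change of -0.09, and the same 2 were called with 10 or more *OPN1SW* UMIs. *CRX*, the master photoreceptor factor, was alike, at 21.7 and 12.2 per 10000 in S cones against 22.4 and 12.4 (log2 fold change -0.09, adjusted p = 0.9997 by edgeR). *RXRG*, a retinoid receptor that partners THRB, stood at 0.300 and 0.585 against 0.393 and 0.297 on 14 UMIs in all S cones. *NRL*, the rod-determining factor, went opposite ways, at 1.23 against 0.211 in N350 and 1.64 against 3.41 in N354 (adjusted p = 0.816). *NR2E3*, which represses cone genes in rods, was analysed in N350 alone, at 0.70 against 0.307, with rods at 5.97.

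Few genes for the working parts of a cone were called, as were few of all genes (1.32%). Of outer segment genes, 15 were tested and 0 called, nor with 10 or more *OPN1SW* UMIs, with a median log2 fold change of -0.29. Of ribbon synapse genes 15 were tested and 1 was lower, *SLC17A7*, the vesicular glutamate transporter that loads the transmitter of photoreceptors, at 4.03 and 0.819 per 10000 against 6.95 and 1.92 (log2 fold change -0.91, adjusted p = 0.0276 by edgeR). It was called with 10 or more *OPN1SW* UMIs (adjusted p = 0.0236) but not with 5 or more (0.217), with 2 or more *OPN1LW* UMIs in L/M cones (0.137), with rods in the fit (0.0640) or by DESeq2 (0.9999), with log2 fold changes from -0.99 to -0.92.

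Retinoid, energy and mitochondrial genes gave 1 call. Of 8 retinoid genes tested, *RLBP1*, the retinaldehyde-binding protein of Müller glia, was higher (log2 fold change 1.38), and with 10 or more *OPN1SW* UMIs it was not called and *RBP4*, the retinol carrier, was called lower. *RBP4* stood at 81.9 and 111 per 10000 in S cones against 113 and 163 (-0.57, adjusted p = 0.117 by edgeR for all S cones), and at 35.5 and 107 in those with 10 or more *OPN1SW* UMIs. None of 17 genes of energy metabolism and none of 13 genes encoded in mitochondria was called, with medians of -0.11 and -0.32, where 1.32% of all genes were. Of 7 genes on a list around the disease the study addressed, all were tested and 0 called. That list includes *ADAM9*, which the paper names for another canine cone-rod dystrophy, and *RPGR*, whose protein it names as a partner of SPATA7. These 3 lists had 0 calls with 10 or more *OPN1SW* UMIs as well. *SPATA7*, which encodes a protein of the photoreceptor connecting cilium, stood at 0.467 and 1.40 against 0.451 and 0.767, with ratios of 1.04 (0.526 to 1.91) and 1.83 (0.887 to 3.50), and *PTPN21*, a phosphatase, at 0.667 and 0.351 against 0.566 and 0.548, with ratios of 1.18 (0.672 to 1.99) and 0.641 (0.126 to 2.03).

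Of 10 rod genes tested 4 were higher, *SAG*, *PDE6G*, *GNGT1* and *CNGA1*, and 0 lower, beside 0.875% higher over all genes, with a median of 0.50 against -0.05. Apart from *SAG*, the called rod genes were higher in N350 and not in N354. *PDE6G*, the rod phosphodiesterase inhibitor, stood at 21.7 against 3.96 per 10000 in N350 and 6.20 against 9.11 in N354. With 10 or more *OPN1SW* UMIs *SAG* alone of the list was called and the median was -0.09.

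Of 10 Müller glia genes tested, 4 were higher, *VIM*, *CLU*, *RLBP1* and *APOE*, and 0 lower, beside 0.875% higher over all genes, with a median of 1.14. *VIM* stood at 26.6 and 75.4 per 10000 in S cones against 13.8 and 17.9 (log2 fold change 1.45, adjusted p = 5.60e-11 by edgeR), and 423 of its 644 UMIs in S cones of N354 came from 1 cell of 16897 UMIs, without which the level was 32.2. With 10 or more *OPN1SW* UMIs *VIM* alone was called and the median was 0.63, and with 5 or more *VIM* lost its call too (log2 fold change 0.97, adjusted p = 0.0802). The immediate early genes *FOS* and *IER2* were called higher (1.21 and 1.18) among 10 stress genes tested, beside 0.875% of all genes, and 0 were called with that limit. The log2 fold change of *FOS* was 0.94 in N350 and 1.72 in N354, where 39 of its 65 UMIs in S cones came from 1 cell. That of *IER2* was 1.10 and 2.90, the latter on 2 UMIs in each cone type, and *IER2* also lost its call with 2 or more *OPN1LW* UMIs in L/M cones, with rods in the fit, with no minimum of 10 UMIs and by DESeq2 (adjusted p of 0.368, 0.124, 0.0744 and 0.9999). *MT2A*, a metallothionein, was called higher (1.81), but 87 of 93 UMIs in S cones of N354 came from 1 cell.

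**Figure D4:**
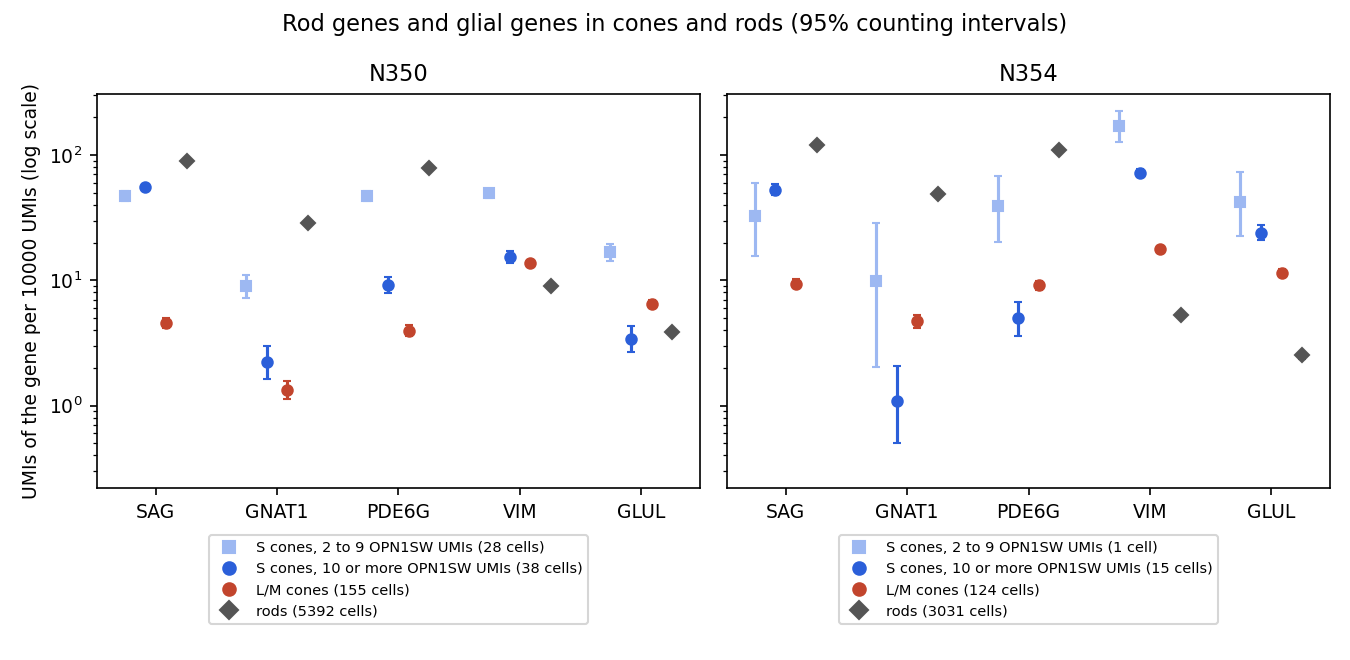
Points are UMIs per 10000 UMIs of rod and glial genes in S cones with 2 to 9 *OPN1SW* UMIs, S cones with 10 or more, L/M cones and rods of each dog, on a log scale with 95% Poisson intervals, and the low group of N354 is 1 cell. In N350 *GNAT1* stood at 9.01 in the low S cones and 2.24 in the others, whereas *SAG* stood at 47.1 and 55.7.

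Markers of the remaining retinal cells were scarce. Of 7 ON bipolar genes tested 0 were called, where 1.32% of all genes were. *CALB1*, a calcium-binding protein of horizontal cells, was called higher (2.37) on 24 UMIs in 7 cells of N350 and 1 UMI in N354, and not with 10 or more *OPN1SW* UMIs. Of 2 genes tested on each of the amacrine, ganglion, astrocyte and vascular lists 0 were called, and all these lists had 0 calls with that limit. OFF bipolar and microglial markers were at 0 UMIs in S cones of both dogs, as were the amacrine enzymes *GAD1* and *GAD2*. No gene of the pigment epithelium list was tested. The vascular list had 0 UMIs in N350 and 2 in N354.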

How the data were processed

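The authors counted UMIs per gene and cell with Cell Ranger 6.0.2, on canFam6 by the paper's methods, and deposited raw counts for called cells, without normalization. The annotations differ between the dogs, 34981 genes in N350 and 19947 in N354 with 15236 names in both, so *NR2E3* was analysed in N350 only, and annotation and dog cannot be told apart.

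Barcodes with at least 200 genes were kept with no mitochondrial limit. Rods, for reference, had under 2 cone genes and at least 5 UMIs over 5 rod genes, more than any other list. Levels are a gene's UMIs per 10000 UMIs of the class, with exact Poisson 95% intervals, and ratios have exact conditional intervals. Shares after thinning to 1000 UMIs were computed from the hypergeometric distribution, leaving out shallower cells, 1 and 0 S cones and 6 and 13 L/M cones of N350 and N354. Scrublet (scanpy 1.11.5) gave doublet scores. Depth was 300053 UMIs in S cones of N350 and 85436 in N354, and 1042733 and 639172 in L/M cones.

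Counts were summed per dog and class, and tested with edgeR 4.0.16 (quasi-likelihood, TMM, dog as block, Benjamini-Hochberg) over genes named in both dogs with at least 10 UMIs, with the 7 genes that chose the cells not counted among calls. DESeq2 1.42.0 was an alternative (R 4.3.3, Python 3.11.15, scipy 1.17.1). On simulated data with 200 changed genes among 8694, the S to L/M test recovered 6.5%, 53.5% and 76.5% at log2 fold changes of 1, 2 and 3. Every simulated gene had the fitted common dispersion of 0.02116 and none was led by a single cell, so recovery in the real data was not measured. Named genes were the 10 called, with the same direction in both dogs, that changed most in each direction, called members of the lists, and fixed cone and disease genes. The members and lists were chosen with earlier results of these data known. No sequence of these genes was used here. Some genes are not reported here.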

Additional observations from a re-analysis of the deposited data

How the results depend on the processing

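*CCK*, *CCDC136*, *SAG*, *THRB*, *SAMD7*, *GSG1L2*, *LAMA1*, *NPTX1*, *ATP6V1C2*, *MT2A* and *OTOS*, 11 genes, were called under every tested alternative other than thinning and the model without the dog. Of these, *CCK* passed the minimum of 10 UMIs through S cones, and no support was drawn from its calls. The share of S cones among cones in N350 was 41.0% with at least 2 *OPN1LW* UMIs in L/M cones, 21.7% with at least 5 *OPN1SW* UMIs in S cones, 19.7% with at least 10 and 62.9% under 5% mitochondrial UMIs, where it was 0% in N354 and no test could be run. The *OPN1SW* level in N350 was 95.1, 102 and 48.5 per 10000 with at least 5, at least 10 and the mitochondrial limit. Higher calls numbered 36 (at least 2 *OPN1LW* UMIs), 25 (at least 5 *OPN1SW* UMIs), 28 (at least 10), 140 (without the 4% highest doublet scores), 34 (rods in the fit), 10 (DESeq2) and 5 (cells thinned to 1000 UMIs). Lower calls numbered 24 with at least 2 *OPN1LW* UMIs, 80 without high doublet scores, 59 with no minimum of 10 UMIs, 7 by DESeq2 and 7 after thinning.

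The dog pairs the sums, since both come from 1 animal. Without this replicate block 0 genes were called higher and 0 lower by edgeR, with 85 at an unadjusted p under 0.05 against 573 with it. The dogs also differ in gene annotation. By DESeq2 17 genes were called.

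Directions turned for *CALB1* (-0.72 and -0.63 with at least 5 and 10 *OPN1SW* UMIs), *CNGA1* (-0.064 with at least 10) and for genes not called, *NRL* (-0.28 and -0.70 with at least 5 and 10, -0.38 without the block), *RXRG* (-0.081 without high doublet scores, -0.084 with no minimum), *CNGB3* (0.041) and *GRK7* (0.065) with at least 10, and *PTPN21* (-0.019 with at least 2 *OPN1LW* UMIs, -0.0059 with 3 cone genes, -0.33 without high doublet scores, -0.082 without the block, -0.11 with no minimum, -0.05 with rods). *PTPN21* also turned by DESeq2 (-0.17). Between N354 alone and N350 alone, log2 fold changes ran from -0.70 to 1.88 for *CNGA1*, -0.13 to 2.04 for *GNGT1*, -0.80 to 1.93 for *GUCA1B* and -0.54 to 2.45 for *PDE6G*. The causes were not tested. With 16 S cones and 85436 UMIs in N354, genes under 0.351 per 10000, the level of 3 UMIs, could not be told from 0 there.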

Other observations

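*TBX2*, a transcription factor that ultraviolet cones of zebrafish need, had 13 UMIs in 12 of 66 S cones of N350, 0.433 per 10000, against 4 UMIs or 0.0384 in L/M cones, a ratio of 11.3 (3.49 to 47.5). In N354 it had 0 UMIs in both cone types, and over both dogs its adjusted p was 0.0762 by edgeR, so it failed the correction. *OTOS*, which encodes otospiralin, was called higher in S cones (log2 fold change 1.55), at 6.43 and 25.9 per 10000 against 3.28 and 5.49, and was found in 39 of 66 and 7 of 16 S cones. It was singled out after its values were seen.

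Cells with the cone genes and no UMI of either opsin numbered 893 in N350 and 141 in N354, and 81 and 11 of them held all 5 cone genes. More than 1 UMI of *THRB* was present in 33 and 1 of those with all 5, and more than 1 UMI of *CCK* or *CCDC136* in 3 and 0. They belong to neither cone type by the rule and entered no comparison.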
